A study of Homo sapiens with 12 samples.

Results

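The histone genes measured in PANC-1 cells, an established human pancreatic cancer cell line, are described here in ribosome footprints and in total RNA. They were chosen by symbol: genes named HIST1H to HIST4H, which encode the replication-dependent histones, and genes named H2AF or H3F3, which encode most of the replacement histones of the H2A and H3 families. Of 83 such genes among the 20212 of the count table, the 76 with at least 10 footprint counts summed over the 6 footprint libraries were kept. They comprised 67 HIST genes (4 of H1, 16 of H2A, 17 of H2B, 15 of H3 and 15 of H4) and 9 replacement genes. The other 7 (H2AFB1, H2AFB2, H2AFB3, HIST1H1A, HIST1H1T, HIST1H2AA and HIST1H2BA) had between 0 and 8 footprint counts in all.

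The study asked how inhibition of mTORC1 changes translation. PANC-1 cells received the solvent DMSO or 50 nM rapamycin, an mTORC1 inhibitor, for 60 min, in 3 cultures each. Each culture gave a library of ribosome-protected fragments (RF, the mRNA pieces that ribosomes shield from nuclease) and a library of total RNA. Nothing in the labels says that cultures of a group were started separately in time, so p-values measure the spread between these cultures, which may be partly technical.

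The RF libraries held between 278835 and 1574723 counts and the total RNA libraries between 78081241 and 94293744. With 0 counts observed, up to 3 remain possible, equal to 10.8 CPM (counts per library scaled to a common size) in the smallest RF library and at most 0.0384 CPM in any total RNA library, for counting error only. The spread between replicates was a coefficient of variation of 54.9% in RF and 5.31% in total RNA, so changes in footprints were measured far less precisely. The total RNA libraries of DMSO 1 and 2 stood apart at low counts. In them, 2072 genes were at 0 while the other 4 RNA libraries had counts, against at most 15 genes for any other pair of RNA libraries. Of the 76 kept genes, HIST1H3F and HIST1H4F were among the 2072, as was HIST1H2AA of the genes left out. Of the duct epithelial markers, KRT8, KRT18 and KRT19 were all at 1326 FPKM or more in every total RNA library, KRT7 had a median of 11.1, SOX9 of 20.6 and EPCAM of 4.81. The acinar and endocrine markers were at 0.272 FPKM or less. Of the immune, fibroblast and endothelial markers only CD68 exceeded 2, with a median of 78.1, but the endothelial marker PECAM1 had no value.

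Histones are the proteins around which DNA is wrapped, and the core of a nucleosome is built from H2A, H2B, H3 and H4, while H1 binds the linker DNA between nucleosomes. Replication-dependent histone mRNAs are made in S phase from clustered genes without introns, and they end in a conserved stem-loop in place of a poly(A) tail. Stem-loop binding protein (SLBP) holds that stem-loop during processing, translation and decay of the mRNA, whereas replacement histones are made throughout the cell cycle, mostly from spliced and polyadenylated mRNAs.

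Annotation (GENCODE 44 on GRCh37) was found for 73 of the 76 genes, 41 by gene identifier and 32 by an older symbol. HIST1H2BG, HIST1H2BF and HIST1H4F were not matched. The 48 matched genes of the HIST1 cluster lie on chromosome 6 between 26020679 and 27861669, and the 12 of HIST2 lie on chromosome 1 between 149389123 and 149859515. The canonical transcript of all 64 matched HIST genes had a single exon. A match to the stem-loop, read on the sense strand within 150 bases after the stop codon, was present in 64 of 64 matched HIST genes and in 1 of 9 replacement genes, H2AFX. Across 19029 protein-coding genes 0.368% held a match. The match began between 23 and 68 bases after the stop codon, with a median of 36. The sense-strand sequences that follow show the stem-loop in capitals with 5 flanking bases on each side, since this 3′ end is what separates both classes of mRNA. They come from GRCh37 and are given for genes that recur in the results.

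HIST1H4C (chr6:26104540-26104565, plus strand): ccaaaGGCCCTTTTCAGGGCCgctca
HIST2H4A (chr1:149804591-149804616, plus strand): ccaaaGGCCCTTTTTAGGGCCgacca
HIST1H2BK (chr6:27114140-27114165, minus strand): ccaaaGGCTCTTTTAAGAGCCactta
HIST1H3C (chr6:26046072-26046097, plus strand): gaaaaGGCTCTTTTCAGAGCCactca
HIST1H2AK (chr6:27805658-27805683, minus strand): aaaaaGGTTCTTTTCAGAGCCaccta
H2AFX (chr11:118965603-118965628, minus strand): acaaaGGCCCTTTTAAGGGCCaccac

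The 65 matches fell into 11 distinct sequences of 16 bases. The most frequent, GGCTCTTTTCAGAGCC, was carried by 38 genes of the H1, H2A, H2B and H3 families and by no H4 gene. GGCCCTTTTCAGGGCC was carried by 9 genes, all of H4. HIST1H2AK carried the sequence GGTTCTTTTCAGAGCC, which no other member had.

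The coding sequences of a family differ mainly in which codons they use, and the overlap between copies bears on where a short footprint can be placed. Among HIST genes with coding sequences of equal length, pairwise identity had a median of 85.6% in H2A, 90.2% in H2B, 85.3% in H3 and 83.8% in H4. The first 30 coding bases of H4 genes follow, each on its coding strand from the start codon on GRCh37, with capitals at bases that differ from HIST2H4A.

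HIST2H4A (chr1:149804249-149804278): atgtccggcagaggaaagggcggaaaaggc
HIST2H4B (chr1:149832668-149832697): atgtccggcagaggaaagggcggaaaaggc
HIST1H4J (chr6:27791903-27791932): atgtcTggcCgCggCaaAggcggGaaGggT
HIST1H4K (chr6:27799276-27799305): atgtcTggcCgCggCaaAggcggGaaGggT
HIST1H4C (chr6:26104176-26104205): atgtcTggTCgCggCaaAggcggaaaaggc
HIST1H4A (chr6:26021907-26021936): atgtcTggACgTggTaagggcggGaaGggT

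HIST1H4C differed from HIST2H4A at 6 of these 30 bases and HIST1H4A and HIST1H4J at 8 each, while HIST2H4B was identical to HIST2H4A. The coding sequences were identical over their whole length in 4 pairs of genes: HIST2H4A and HIST2H4B, HIST1H4J and HIST1H4K, HIST2H3A and HIST2H3C, and HIST2H2AA3 and HIST2H2AA4. For each gene, the share of its 28-base coding words that occur anywhere else in the genome was taken as a measure of this overlap. All words were shared by 8 HIST genes and by H3F3A, which encodes the replacement histone H3.3. Under 20% were shared by 34 of the 64 matched HIST genes, of which 33 were tested.

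Histone mRNAs were abundant in total RNA. In DMSO, 30 of the 67 HIST genes were above 100 FPKM (fragments per kilobase of transcript, scaled to library size by the authors), and the median was 85.3 FPKM. HIST1H1C, a linker histone gene, was at 436 FPKM, HIST1H1B at 422, HIST1H3B at 378 and HIST1H4C at 347. Of the replacement genes, H3F3B, which also encodes H3.3, was at 449 FPKM and H2AFZ, which encodes H2A.Z, at 348. At the other end, 10 HIST genes were below 1 FPKM, including HIST2H3A and HIST2H3C of the identical pairs. Every 100-base exon word of HIST2H3A and HIST2H3C occurs elsewhere in the genome. Since the study kept uniquely aligned reads, their low FPKM may not measure their abundance.

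Footprints per coding kilobase were compared between the families, since their coding lengths differ. Summed over the HIST genes of a family in DMSO, RF came to 7119 ± 636 CPM per coding kilobase (SD, n = 3) for H4, 5763 ± 593 for H2A, 4636 ± 457 for H2B, 4540 ± 538 for H3 and 1469 ± 165 for H1. H2B and H3 were within their spread of each other, and every culture had more for H4 than for H2A and least for H1. The replacement H2A genes added 1417 ± 82.5 and the replacement H3 genes 1019 ± 41.4. Total RNA followed another order. Summed FPKM was highest for H2B, at 2213 ± 22.9, followed by H2A at 1678 ± 22.97, H4 at 1473 ± 26.0, H1 at 1287 ± 32.5 and H3 at 1079 ± 46.2. The HIST genes with under 80% of their words shared gave 4405 ± 481 CPM per coding kilobase for H4, 3545 ± 405 for H2A, 3006 ± 72.4 for H2B and 2984 ± 387 for H3. Their summed FPKM was 1773 ± 34.5 for H2B, 1456 ± 26.8 for H4, 1306 ± 16.7 for H2A and 1077 ± 46.1 for H3. The order of H2A and H4 in total RNA thus depended on the genes with more shared words.

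Next, footprints were compared with total RNA gene by gene in the DMSO cultures, each scaled within its own library type. In the count model over all libraries, 55 of 66 tested HIST genes (83.3%) lay above total RNA and 0 below, by quasi-likelihood test in edgeR with adjusted p below 0.05. Of all 13329 genes tested, 21.3% lay above and 42.7% below. The median log2 RF over total RNA was 1.28 for the HIST genes, -0.13 for the 9 replacement genes and -0.58 for all genes. Every tested gene, histone or not, had passed the same minimum of 10 RF counts. The study's methods do not state whether RNA with a poly(A) tail was selected for the total RNA libraries. Its bearing on the level of mRNAs without such a tail was not tested. RF reads lie on coding sequence and RNA reads on the whole transcript, and the coding share of the canonical transcript had a median of 79.1% for the HIST genes, 38.1% for the replacement genes and 49.9% for all genes. The levels given here are not corrected for these lengths. Taken per base, genes with a smaller coding share would rise more than the HIST genes, so the gaps between these medians would narrow. Without the total RNA libraries of DMSO 1 and 2, which stood apart, 37 of 66 HIST genes lay above total RNA, and over all genes the number above fell from 2838 to 1690 of 13329.

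The HIST families differed in this level. Its median was 0.08 for the 4 H1 genes, of which only HIST1H1C lay above total RNA in the test (log2 0.32, adjusted p = 0.0328, edgeR). For H2B the median was 0.57, with 10 of 17 above. H2A had a median of 1.24, with 15 of 16 above, H4 of 2.08 and H3 of 2.28, with all 14 and all 15 tested genes above. Among the genes with under 80% shared words, the medians were 1.13 for H2A, 0.57 for H2B, 2.01 for H3 and 1.39 for H4. The lowest HIST genes were HIST1H2BN at -0.06 ± 0.24 (SE), HIST1H2BB at -0.03 ± 0.28 and HIST1H1D at 0.03 ± 0.23, none of which passed the test in either direction.

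HIST2H3C, HIST2H4A and HIST2H4B had the highest ratios of all members, at log2 8.77 ± 0.25, 8.70 ± 0.29 and 8.68 ± 0.33. These 3 genes belong to the identical pairs. HIST2H3A had 98, 212 and 510 RF counts in DMSO 1 to 3 and 391, 290 and 85 in rapamycin 1 to 3, and HIST2H3C had 95, 204, 493, 390, 297 and 95 in the same order. In the far deeper total RNA libraries, HIST2H3A had between 50 and 110 counts and HIST2H3C between 52 and 91. Both copies thus carried near-equal footprints in each library and few total RNA counts. HIST2H4A and HIST2H4B summed to 1626 and 1602 RF counts and to 436 and 393 RNA counts, and HIST2H2AA3 and HIST2H2AA4 to 1225 and 1182 RF and to 674 and 600 RNA counts. HIST1H4J and HIST1H4K were less even, with 638 and 518 RF and 1605 and 303 RNA counts.

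**Figure D1:**
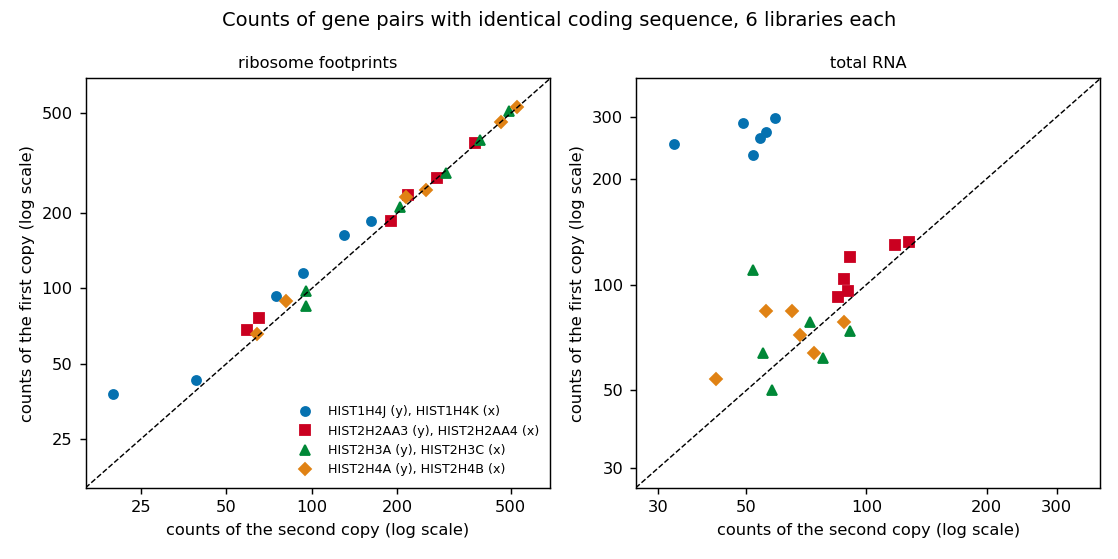
Counts of the first copy against those of the second for the 4 gene pairs with identical coding sequence, 1 point per library and log axes, ribosome footprints on the left and total RNA on the right, with the dashed line at equality. HIST2H3A over HIST2H3C lay between 0.895 and 1.04 in the 6 RF libraries, and HIST1H4J had more total RNA counts than HIST1H4K in all 6 RNA libraries.

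The values of these copies are uncertain, because a footprint of a shared word has no single place of origin, although the study's methods state that uniquely aligned reads were kept. The limit holds for total RNA too. All 100-base exon words of the HIST2H3A, HIST2H4A and HIST2H2AA3 pairs occurred elsewhere in the genome. For HIST1H4J and HIST1H4K the shares were 90.7% and 91.3%. Total RNA counts of these copies may therefore not measure how abundant their mRNAs were. The 13 tested HIST genes with at least 80% shared words had a median log2 RF over RNA of 7.59, against 0.90 for the 17 with 20% to under 80% and 1.25 for the 33 with under 20%. Whether reads of shared words account for the ratios of the copies was not tested. Without the 13 and the unmatched HIST1H2BG, HIST1H2BF and HIST1H4F, 41 of 50 HIST genes lay above total RNA, with a median of 1.12. Among the 51 HIST genes with over 1000 RNA counts in all, 40 lay above, with a median of 1.08.

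**Figure D2:**
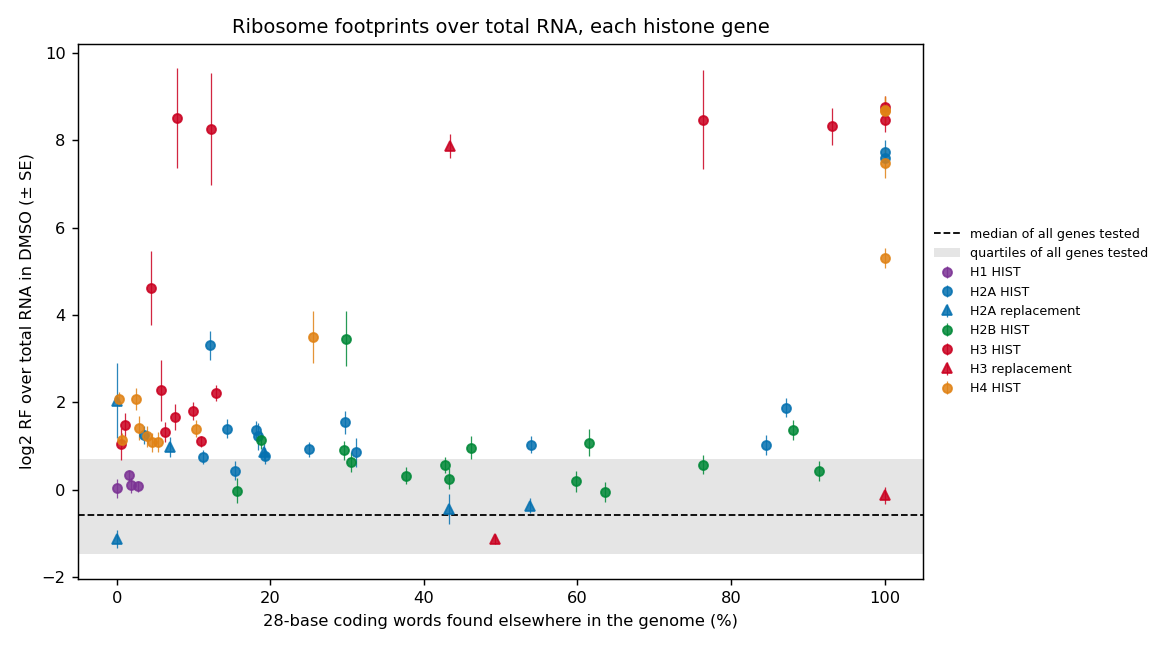
log2 RF over total RNA in DMSO (vertical axis, ± SE) against the percentage of 28-base coding words found elsewhere in the genome (horizontal axis), 1 point per tested and annotated histone gene, coloured by family, with circles for HIST and triangles for replacement genes. All 8 HIST genes at 100% lay at log2 5.31 or more, and the dashed line marks the median of all genes tested, at -0.58.

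Several other genes had high ratios on few RNA counts. HIST3H3 and HIST1H3F shared 7.87% and 12.3% of their coding words, and the share was not measured for HIST1H4F. HIST3H3 had 4, 6 and 12 RF counts and 4, 0 and 2 RNA counts in DMSO 1 to 3, and HIST1H3F had 1, 3 and 12 RF and 0, 0 and 4 RNA counts. HIST1H4F had 1, 2 and 12 RF and 0, 0 and 3 RNA counts. HIST1H4G had 5 RNA counts in all and was not tested. HIST3H2A rested on more counts, with 4, 24 and 34 in RF and 247, 207 and 206 in RNA. These equal 12.3, 30.2 and 23.1 CPM in RF and 2.65, 2.23 and 2.34 CPM in RNA (log2 3.30 ± 0.33).

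Of the 9 replacement genes, 4 lay above total RNA and 2 below by the edgeR test, against 21.3% and 42.7% of all genes. H2AFY, which encodes macroH2A1, and H3F3B lay below total RNA, at log2 -1.13 ± 0.21 (adjusted p = 0.000316) and -1.13 ± 0.11 (adjusted p = 1.83e-06). H2AFV and H2AFZ, both genes of H2A.Z, were at -0.44 ± 0.34 and -0.37 ± 0.16, and H3F3A was at -0.13 ± 0.20. None of these 3 passed the test. H2AFX, which encodes the H2A.X that is phosphorylated at DNA breaks and which alone of the 9 carries the stem-loop, lay above total RNA at 0.86 ± 0.18 (adjusted p = 0.00101). H2AFJ, whose canonical transcript has a single exon, was at 0.98 ± 0.24 (adjusted p = 0.00263), and H2AFY2, the gene of macroH2A2, at 2.04 ± 0.85 (adjusted p = 0.0489) on 0, 1.26 and 7.47 CPM in RF. H3F3C, which has no annotated spliced form, was at 7.87 ± 0.27, on 28, 73 and 137 RF and 34, 26 and 46 RNA counts, and shared 43.4% of its coding words.

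Whether any HIST transcript carries a poly(A) tail was not examined. Some HIST genes have annotated transcripts that run past the stem-loop by more than 50 bases. Such transcripts were annotated for 18 of 64 genes, 14 of which had a spliced coding form, but the authors' isoform table held both a form ending near the stem-loop and a longer one for 7 genes. In 6 of them nearly all signal was on the short form. In DMSO, the short form held 97.2% ± 0.16 (SD, n = 3) of the FPKM of HIST1H2AC, 97.9% ± 0.24 of HIST1H2BC, 96.8% ± 0.22 of HIST1H2BD, 98.4% ± 0.26 of HIST1H2BJ, 94.4% ± 0.88 of HIST2H2BF and 98.9% ± 0.31 of HIST4H4. HIST1H2BD was at 304 ± 2.19 FPKM in the short and 10.0 ± 0.69 in the long form. In rapamycin the shares were 97.3% ± 0.25, 97.8% ± 0.40, 97.0% ± 0.26, 98.3% ± 0.49, 96.0% ± 1.6 and 99.0% ± 0.40 in the same order, and both treatments overlapped for each gene. HIST2H3PS2 was under 1 FPKM in both forms and gave no usable share.

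After rapamycin the summed footprints of the HIST genes depended on the scaling. As a share of the library, they were 0.902%, 0.812% and 0.900% in DMSO 1 to 3 and 1.01%, 1.02% and 0.927% in rapamycin 1 to 3. All 3 rapamycin cultures lay above all 3 of DMSO by this measure (ratio 1.13, two-sided exact permutation p = 0.1, the smallest that 3 against 3 cultures allow). Scaled by TMM, the sums were 8416, 8989 and 9626 CPM in DMSO and 10486, 9786 and 8600 in rapamycin, which overlapped (ratio 1.07, exact permutation p = 0.4). In total RNA the share was 0.374%, 0.364% and 0.369% in DMSO and 0.367%, 0.360% and 0.387% in rapamycin (ratio 1.01, exact permutation p = 0.9). The 9 replacement genes summed to 1028 ± 9.26 CPM in RF in DMSO and 1126 ± 51.8 in rapamycin, without overlap (ratio 1.10, exact permutation p = 0.1), but their shares of the library overlapped. In total RNA they summed to 1384 ± 10.6 and 1339 ± 37.3 CPM.

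**Figure D3:**
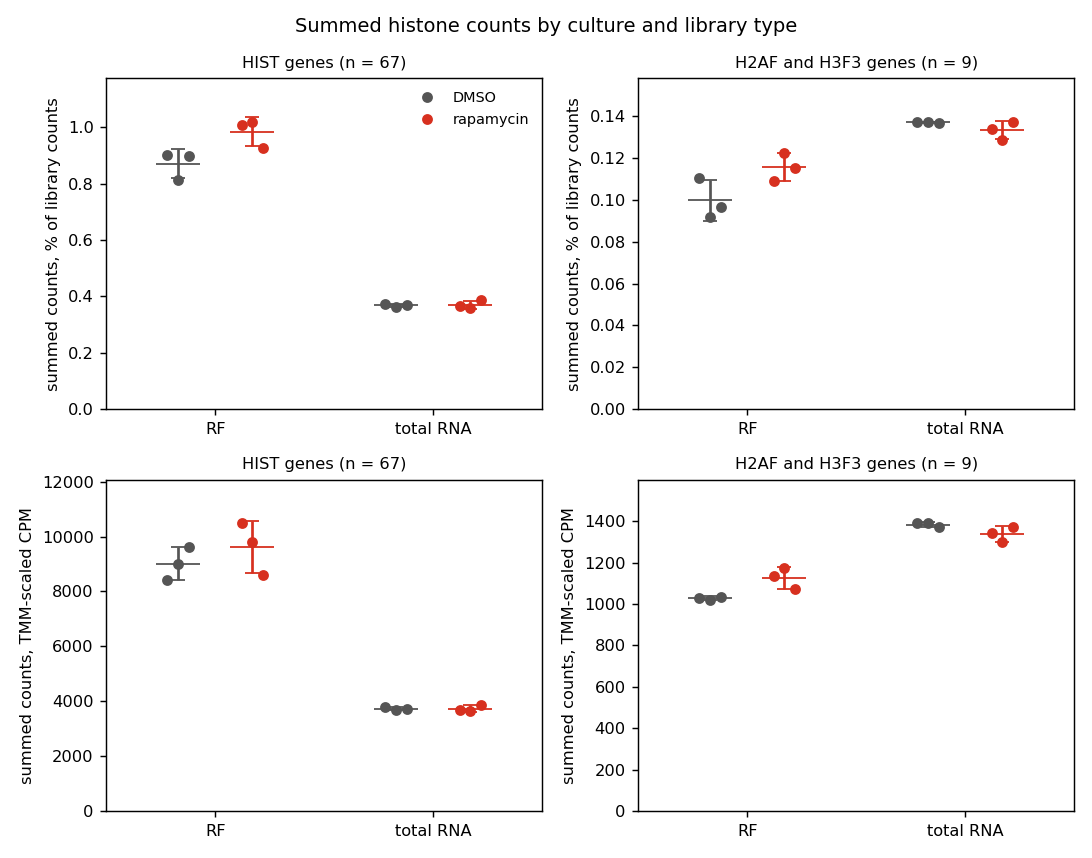
Summed counts of the 67 HIST genes (left) and 9 replacement genes (right) by culture in RF and in total RNA, as a percentage of the library (top) and as TMM-scaled CPM (bottom), with points for cultures and bars for mean ± SD (n = 3). The 3 rapamycin cultures lie above the 3 of DMSO for HIST footprints as a share of the library and not on the TMM scale.

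By gene, no histone gene passed the edgeR test for a change after rapamycin (adjusted p below 0.05), in translation efficiency (TE, the change in RF beyond that in total RNA), in RF or in total RNA. Neither did any other gene in these fits, so 0% of all 13329 genes were called in each direction. The smallest adjusted p of a member was 0.231 for TE. At an unadjusted p under 0.05, 2 of 75 members had a higher TE and 0 a lower TE, against 6.17% and 6.42% of all genes. For RF 1 member was higher and 0 lower, against 1.76% and 1.92%. In total RNA 1 was higher and 1 lower, against 3.32% and 2.51%. The TE fit used 1 dispersion per gene for both library types, so its standard errors and p-values may understate the spread of RF. Over all genes the median standard error was 0.58 for TE and 0.84 for RF alone. With a variance per library type in limma voom, 400 genes were higher and 498 lower in TE at this threshold, in place of 823 and 856. DESeq2's Wald test gave a different count for TE, with 5 of 75 members higher after adjustment and 0 lower, while it called 5.07% of all genes higher and 4.55% lower. The 5 were HIST1H2AK, HIST1H2BN, HIST1H2BG, HIST1H2AC and H2AFX. In RF and in total RNA the Wald test called 0 members. Over all genes it called 4 of 13325 higher and 1 lower in RF. In total RNA it called 25 of 13314 higher and 4 lower.

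The changes centred near those of all genes. The median log2 change in TE was 0.03 for the 66 HIST genes, of which 36 were above 0, 0.18 for the 9 replacement genes and -0.06 for all genes. In RF the medians were 0.07, 0.13 and 0.02, and in total RNA 0.02, -0.05 and 0.01. The quartiles of the HIST genes were -0.14 and 0.26 for TE and -0.03 and 0.08 for total RNA. By family, the median TE change of the HIST genes was 0.14 for H1, -0.0035 for H2A, 0.22 for H2B, -0.13 for H3 and 0.01 for H4. The cultures of both treatments did not overlap in TE for 7 members that were higher and 2 that were lower in rapamycin, against 4.8% and 6.19% of all genes. In RF 7 members were higher and 1 lower without overlap, against 5.24% and 4.21%, and in total RNA 3 and 3, against 8.22% and 6.61%.

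**Figure D4:**
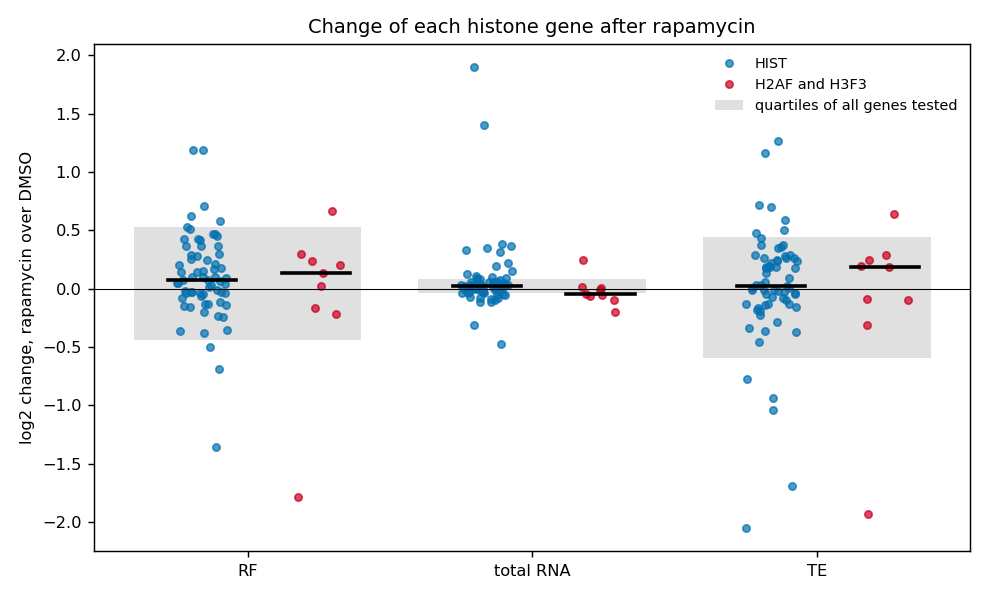
log2 change after rapamycin in RF, total RNA and TE, 1 point per tested histone gene (66 HIST and 9 replacement genes), with black bars at the class medians and grey bands from the lower to the upper quartile of all 13329 genes. Most points lie inside the grey bands in RF and TE, and the class medians lie between -0.05 and 0.18.

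HIST1H2AK, an H2A gene, had the smallest p for TE. Its footprints were at 24.6, 10.1 and 23.8 CPM in DMSO 1 to 3 and at 50.6, 43.6 and 36.6 in rapamycin 1 to 3. These rested on few counts, 8, 8 and 35 in DMSO and 61, 36 and 11 in rapamycin, and 31.1% of its coding words were shared. All 3 rapamycin cultures were above all 3 of DMSO, while total RNA overlapped, at 12.2, 10.4 and 9.92 CPM against 9.79, 11.3 and 10.8. The log2 TE change was 1.27 ± 0.37 (SE, unadjusted p = 0.0038, adjusted p = 0.231 in edgeR).

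H2AFX followed. Its footprints were at 120, 107 and 124 CPM in DMSO and at 151, 195 and 213 in rapamycin, again without overlap. Total RNA was at 65.6, 60.7 and 67.5 against 63.6, 63.3 and 68.3 CPM. The log2 change was 0.64 ± 0.25 in TE (unadjusted p = 0.0233, adjusted p = 0.325 in edgeR) and 0.66 ± 0.28 in RF (unadjusted p = 0.0294).

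HIST1H2BN, an H2B gene, was at 52.3, 54.0 and 54.3 CPM in RF in DMSO and at 110, 65.3 and 69.9 in rapamycin, with a log2 TE change of 0.70 ± 0.33. It shared 63.5% of its coding words, and its RF counts were 17, 43 and 80 in DMSO and 133, 54 and 21 in rapamycin. HIST1H2AC was at 160, 134 and 156 against 222, 185 and 196 CPM, with 0.38 ± 0.22. HIST1H2BG and H3F3B were also higher in all 3 rapamycin cultures, with log2 TE changes of 0.50 ± 0.25 and 0.29 ± 0.16. H3F3B was at 212, 256 and 247 CPM in RF in DMSO and at 285, 280 and 279 in rapamycin. None of these 4 passed the edgeR test.

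In the other direction, HIST3H2A had a log2 TE change of -0.94 ± 0.44, with RF at 12.3, 30.2 and 23.1 CPM in DMSO against 8.29, 20.6 and 19.96 in rapamycin, which overlapped. The RF counts behind them were 4, 24 and 34 in DMSO and 10, 17 and 6 in rapamycin. HIST1H2AJ was at -0.38 ± 0.30. H2AFY2, HIST1H3E and HIST1H3F had larger estimates of -1.93, -1.69 and -2.05 with standard errors of 1.5, 1.1 and 1.5, on few counts. Leaving out 1 culture moved them to between -10.2 and 0.093, between -2.82 and -0.30 and between -4.25 and -1.63.

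**Figure D5:**
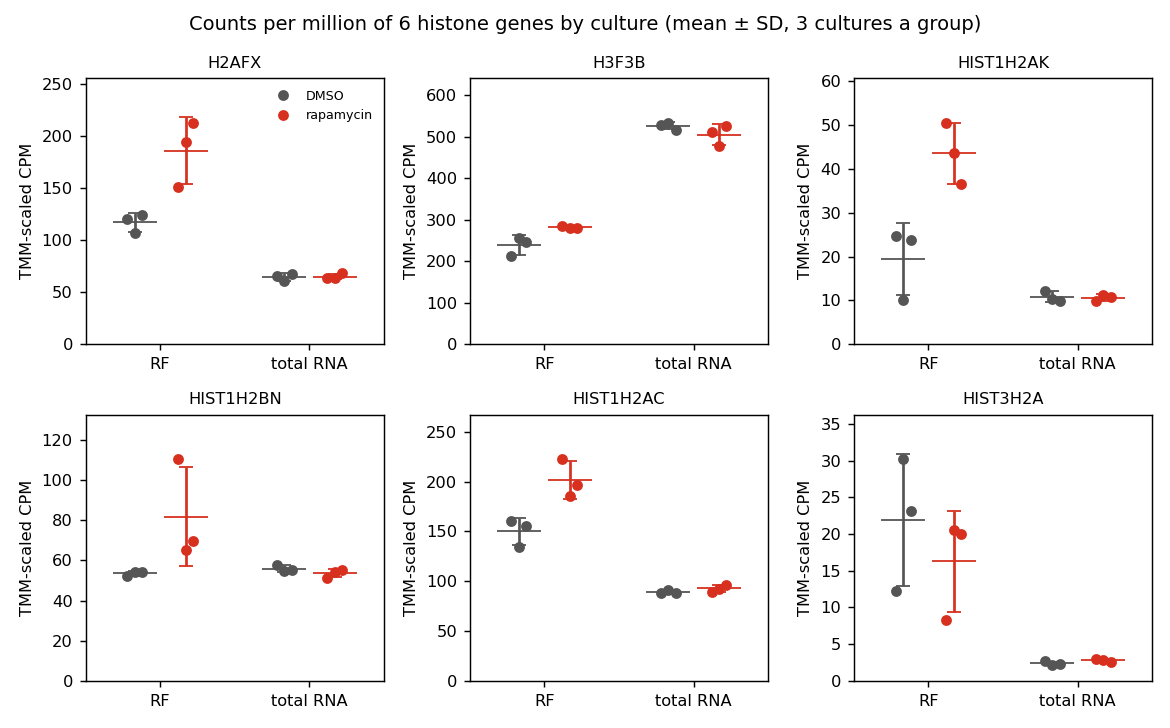
TMM-scaled CPM of 6 histone genes in RF and in total RNA by culture, with grey points for DMSO, red points for rapamycin and bars for mean ± SD (n = 3). Footprints of H2AFX, H3F3B, HIST1H2AK, HIST1H2BN and HIST1H2AC are higher in all 3 rapamycin cultures, with total RNA overlapping. None of these 5 passed the adjusted test in edgeR, while DESeq2's Wald test called the TE of all of them but H3F3B.

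The genes with most footprints moved little. HIST1H2BK, the H2B gene with most RF counts of all HIST genes (1954), was at 572, 224 and 402 CPM in DMSO against 441, 414 and 413 in rapamycin, a log2 RF change of 0.09 ± 0.28. HIST1H1C, the linker histone gene, was at 308, 364 and 348 against 332, 365 and 293 CPM (-0.04 ± 0.22), and HIST1H1B at 255, 302 and 348 against 361, 340 and 303 CPM (0.15 ± 0.23). For the H3 genes HIST1H3B and HIST1H3C the log2 RF change was -0.05 ± 0.22 and -0.08 ± 0.27, and for HIST1H4C it was -0.12 ± 0.23. The 95% interval of the log2 RF change ran from -0.47 to 0.39 for HIST1H1C and from -0.46 to 0.64 for HIST1H2BK, which shared 88.0% of its coding words. The identical copies HIST2H3A, HIST2H3C, HIST2H4A and HIST2H4B were between -0.03 and 0.18.

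Total RNA was measured more precisely. HIST1H4C was lower after rapamycin in all 3 cultures, at 146, 144 and 140 CPM in DMSO against 134, 135 and 137, a log2 change of -0.09 ± 0.03 (unadjusted p = 0.0184). HIST3H2BB, an H2B gene, was higher, at 6.36, 5.53 and 5.87 against 6.78, 6.64 and 6.86 CPM, with 0.19 ± 0.07 (unadjusted p = 0.0263). Neither passed adjustment over all genes. H2AFZ and H2AFV were lower in all 3 cultures, by log2 changes of -0.06 ± 0.04 and -0.05 ± 0.03, at unadjusted p of 0.142 and 0.137 in edgeR.

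Genes that make, process or place histones were examined beside them, from lists chosen with earlier results of these data known. Of 21 tested genes of histone mRNA transcription and processing, 29 histone chaperones and deposition factors and 22 other S phase genes, none was called in TE, RF or total RNA by edgeR after adjustment. At an unadjusted p under 0.05, the TE of the processing list was higher for 1 gene and lower for 0, that of the chaperones for 0 and 1, and that of the S phase genes for 2 and 2. In RF none was higher, and 0, 1 and 2 genes of the 3 lists were lower. In total RNA 1 processing gene was higher and 1 lower, 5 of 29 chaperones were lower and 0 higher, and 2 of 22 S phase genes were lower and 0 higher, against 3.32% of all genes higher and 2.51% lower. For TE the shares of all genes were 6.17% higher and 6.42% lower, and for RF 1.76% and 1.92%. The median log2 RF change was 0.02, -0.07 and -0.31 for the 3 lists, against 0.02 for all genes.

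By the named genes of these lists, SNRPB, whose Sm protein is a core part of spliceosomal snRNPs, had a log2 TE change of 0.35 ± 0.19 and a total RNA change of -0.11 ± 0.04. For SNRPD3 and SNRPF, also Sm proteins, TE changed by -0.26 ± 0.36 and 0.11 ± 0.24. Among the chaperones, NPM1 (nucleophosmin) had -0.31 ± 0.17, NAP1L1 -0.16 ± 0.18 and NCL (nucleolin) 0.15 ± 0.17 in TE. PCNA, the sliding clamp of DNA polymerase, had 0.18 ± 0.19, and RRM1 and RRM2, the subunits of ribonucleotide reductase, -0.22 ± 0.21 and -0.13 ± 0.17. Of histone genes outside the naming rule, H1FX, a replacement linker histone gene, had 0.87 ± 0.35 (unadjusted p = 0.0279), H1F0 -0.06 ± 0.37 and CENPA, the gene of the centromeric H3, 0.21 ± 0.79.

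The level of footprints over total RNA in DMSO was also taken for these lists. Of the 21 processing genes 3 lay above and 15 below total RNA, of the 29 chaperones 3 and 15, and of the 22 S phase genes 1 and 11, against 21.3% of all genes above and 42.7% below. Their medians were log2 -0.92, -0.81 and -0.51, against 1.28 for the HIST genes and -0.58 for all genes.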

How the data were processed

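Each of 6 PANC-1 cultures gave 1 RF and 1 total RNA library. The authors aligned reads to GRCh37 with HISAT2, kept uniquely aligned reads and deposited raw counts on exons of protein-coding genes (featureCounts). The submitters' processing notes name Cufflinks 2.2.1, whose cuffnorm gave the deposited FPKM of genes and isoforms in total RNA. The authors' RiboDiff columns (ratios, fold changes and p-values) and normalized counts were not used here.

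Counts were tested with edgeR 4.0.16 in R 4.3.3: TMM within each library type, genes with at least 10 RF and 10 RNA counts, and Benjamini-Hochberg adjustment over all 13329 genes. The TE change was the library-type-by-treatment interaction, and RF over total RNA the library-type term in DMSO. Both terms used 1 dispersion per gene over RF and total RNA libraries, so their standard errors and p-values may understate the spread of RF. Class sums were compared by exact permutation. The edgeR tests of the changes in TE, RF and total RNA were tried on simulated data. For RF over total RNA only the size of the estimate was checked there. The alternatives were DESeq2 1.42.0, limma 3.58.1 and other filters, scalings, blocks and left-out libraries. The splits by shared words and by RNA counts and the shares of the library were chosen after seeing the data.

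Sequences and annotation came from GRCh37 and GENCODE 44. The stem-loop searched was 16 bases: GG, 3 bases of C or T, TT, 3 bases of A, C or T, A, 3 bases of A or G, CC. The 28-base coding words and 100-base exon words were searched on both strands of the genome. Members and lists were chosen with earlier results of these data known. Named genes are all replacement genes, the 10 HIST genes with most RF counts, those with the smallest p or the highest and lowest ratio, those with longer isoforms, and the 3 genes of each list with most RF counts.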

Additional observations from a re-analysis of the deposited data

How the results depend on the processing

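Without the RNA libraries of DMSO 1 and 2, which left 1 DMSO RNA library, assumed to vary like the rest, 38 of 75 members lay above total RNA in place of 59, and 37 of 66 HIST genes in place of 55, while over all 13329 genes the number fell from 2838 to 1690. Replacement genes above total RNA fell from 4 to 2 with the culture as replicate block, under which 1939 of all 13329 genes lay above, in place of 2838. Under DESeq2's Wald test, 5 members had a higher TE, in place of 0, and of the list genes 4 were lower and 4 higher, in place of 0 each. That test called 4.55% of all genes lower in TE and 5.07% higher. With TMM over all libraries the median of all genes moved from -0.58 to -0.01, 64 HIST genes lay above, as did 3795 of all genes, and H2AFZ, H2AFV and H3F3A turned positive, at 0.21, 0.13 and 0.44.

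Leaving out 1 culture gave between 52 and 58 members above total RNA, while over all 13329 genes the number lay between 2373 and 2814. Between 2 and 4 replacement genes lay above (2 without DMSO 3, where 2625 of all genes did). After rapamycin 0 members or list genes were called. Over all genes, edgeR called 875 higher and 6 lower in total RNA and 70 higher and 374 lower in TE without DMSO 3, in place of 0. The TE of H2AFY2 ranged from -10.2 (without rapamycin 2) to 0.093 and its RF change from -4.54 to 0.079, positive without DMSO 3. The TE of HIST1H3F ranged from -4.25 (without DMSO 3) to -1.63, and that of HIST1H3E from -2.82 (without rapamycin 2) to -0.30 (without DMSO 2). The RF change of HIST1H3E ranged from -2.29 to 0.070, positive without DMSO 2, and the level of H3F3A from -0.20 to 0.010, positive without DMSO 2. Replicate numbers did not pair the treatments: the deviations of same-numbered RF libraries correlated at -0.12 to -0.06, and with the replicate number as a block 0 members were called in TE, RF or total RNA. Other counts of calls stayed within 1.5 times of those reported.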
